A study of Mus musculus with 12 samples.

Results

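The 46 genes described here encode the sarcomere and contractile apparatus of striated muscle, together with proteins that attach to it. They are the rows of the deposited count table whose gene name is one of 46 listed symbols, and each symbol occurs once among the 54532 genes of the table. By role, 15 belong to the thick filament, 13 to the thin filament, 5 to titin and the M-band, and 13 to the Z-disc and its attachments. A fibre type could be given to 26 of them: 6 are developmental forms, 8 slow forms and 12 fast forms.

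C2C12 is an established mouse line of skeletal muscle precursor cells (myoblasts). Perfluorooctanesulfonate (PFOS), a persistent fluorinated surfactant, was given to confluent C2C12 dishes at 0, 2 or 6 µM for 24 h, with 4 messenger RNA libraries per dose. All 12 libraries come from this 1 line, no other agent or genetic change is named for any dose, and no source used here says whether the 0 µM dishes received a vehicle. The series title names metabolism as the process under study, and the sources do not say whether the 4 libraries of a dose were separate cultures, so each p-value reflects just the spread from library to library, which could be technical.

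A sarcomere is built from myosin thick filaments that slide along actin thin filaments. The troponin complex and tropomyosin make this sliding depend on calcium, titin spans from the M-band to the Z-disc, and nebulin runs along the thin filament. Myoblasts hold little of this apparatus: they switch its genes on when they leave the cell cycle and fuse into myotubes, first with developmental forms and later with the forms of slow and fast fibres.

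Of the 46 genes, 35 had enough counts to be tested. Over all 16038 genes tested, 3.66% fell and 4.58% rose at 6 against 0 µM (edgeR adjusted p under 0.05). Of the 35, 12 fell at 6 µM and none rose. The fold decreases ran from 1.17-fold (Cryab) to 2.49-fold (Actc1), with a median of 1.67. The genes that fell were Myh1, Myh3, Mylpf and Myl6b of the thick filament, Acta1, Actc1, Tnnt1, Tnni1, Tnnc1 and Neb of the thin filament, the titin gene Ttn, and Cryab. At 2 µM, 3 of these genes (Mylpf, Cryab and Myh1) fell against 0 µM, where 0.742% of all genes tested fell and 1.61% rose. These 3 results were lost in 5 (Mylpf), 6 (Cryab) and 10 (Myh1) of 12 fits without 1 library. From 2 to 6 µM, 1 of the 35 tested genes fell, Ttn (edgeR adjusted p = 0.0339), against 0.549% of all genes tested. That result was lost in 5 of 12 fits without 1 library. Between 0 and 2 µM Ttn did not pass the threshold (edgeR adjusted p = 0.48).

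The promoters of the 5 genes with the smallest adjusted p at 6 against 0 µM are printed. They show which of the known muscle motifs stand before a RefSeq start of these genes. For Tnnt1, Actc1 and Mylpf, this start and the printed bases lie inside the gene as GENCODE M21 annotates it. The sequences are RefSeq's for GRCm38.p6, 5′ to 3′ on the strand of the gene, from the 250 bases before the start and without bases that GENCODE M21 annotates as exon. They lie at chr11:67199852-67200051 (Myh1, + strand), chr7:4516005-4516225 (Tnnt1, - strand), chr2:76982548-76982797 (Ttn, - strand), chr2:114052888-114053125 (Actc1, - strand) and chr7:127211358-127211607 (Mylpf, + strand). Capitals mark each match, on either strand, to the E-box CANNTG (bound by MyoD and myogenin), the MCAT element CATTCC, the CArG box (bound by Srf), the MEF2 site or TATAAA.
Myh1: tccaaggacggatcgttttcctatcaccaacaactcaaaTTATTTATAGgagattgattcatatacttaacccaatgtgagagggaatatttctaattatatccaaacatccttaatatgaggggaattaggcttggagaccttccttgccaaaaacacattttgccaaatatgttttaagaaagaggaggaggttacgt
Tnnt1: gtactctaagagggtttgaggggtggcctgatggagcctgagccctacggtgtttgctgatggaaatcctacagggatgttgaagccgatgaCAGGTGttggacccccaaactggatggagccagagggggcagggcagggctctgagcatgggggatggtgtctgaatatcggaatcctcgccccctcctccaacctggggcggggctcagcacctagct
Ttn: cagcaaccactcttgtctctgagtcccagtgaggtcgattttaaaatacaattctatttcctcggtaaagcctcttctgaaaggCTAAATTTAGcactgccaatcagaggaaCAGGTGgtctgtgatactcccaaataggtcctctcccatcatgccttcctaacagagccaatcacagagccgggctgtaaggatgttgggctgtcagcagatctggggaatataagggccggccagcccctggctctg
Actc1: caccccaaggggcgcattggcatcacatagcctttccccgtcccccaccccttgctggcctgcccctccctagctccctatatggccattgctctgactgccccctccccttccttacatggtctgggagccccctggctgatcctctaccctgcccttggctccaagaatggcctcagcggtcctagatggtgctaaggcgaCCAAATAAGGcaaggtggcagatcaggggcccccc
Mylpf: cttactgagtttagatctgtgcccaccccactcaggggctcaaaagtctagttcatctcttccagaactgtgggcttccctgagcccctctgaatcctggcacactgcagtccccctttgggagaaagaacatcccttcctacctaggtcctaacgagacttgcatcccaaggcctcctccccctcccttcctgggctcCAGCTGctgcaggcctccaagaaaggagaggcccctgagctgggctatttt

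In these stretches, the capitals in Myh1 are a MEF2 site that also holds TATAAA on the other strand. The capitals in Tnnt1 and Mylpf are an E-box each, those in Ttn a MEF2 site and an E-box, and those in Actc1 a CArG box. Over the full 250 bases, Myh1 also had CATTCC and TATAAA, and Tnnt1 also had TATAAA, nearer to the start. Of the 46 genes, 36 matched a RefSeq promoter by symbol. The E-box letters were present in 30 of these 36 and in 66.2% of all 32841 promoters of the same length. CATTCC was present in 10 of 36 (12.6% of all promoters), the CArG box in 6 (1.47%), the MEF2 site in 7 (2.92%) and TATAAA in 9 (12.4%). A gene was counted if any of its promoters held the motif, whereas the percentages count single promoters. A gene with more than 1 promoter therefore had more chances of a match. A match describes the letters only.

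The libraries held 30206155 to 50351082 counts each. Of 16038 genes that passed a filter on low counts and were tested, 35 are among the 46. The filter can pass a gene through the 1 dose in which it is high, so counts over the 35 describe those genes and not the list as a whole. Myoblast markers were present, with Des at 259 ± 21.7, Cdh15 at 37.3 ± 3.03, Myod1 at 30.3 ± 2.57 and Myf5 at 2.39 ± 0.487 CPM at 0 µM (counts-per-million; mean ± SD, n = 4), while Pax7 stood at 0.161 ± 0.112. Of these, Cdh15 was called lower at 6 µM, at 31.3 CPM (edgeR adjusted p = 0.0369), with overlapping groups. That call was lost in 7 of 12 fits without 1 library. Myf5 was not called at 6 µM (edgeR adjusted p = 0.376), and Des and Myod1 are given below. Markers of differentiation ranged widely at 0 µM. Acta1 was at 23.2 CPM, Myh3 at 11.4, Myog at 7.15 ± 1.25, Mymk at 4.34, Tnnt3 at 2.81 and Mymx at 0.889. Ckm and Cdkn1c had 19 counts each over the 4 libraries of 0 µM. Library 1 of 0 µM and libraries 2 and 3 of 6 µM deviated most from their dose means over all genes, by 0.402, 0.424 and 0.422 on the log2 scale (root mean square), against 0.339 to 0.39 in the other 9.

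Levels per length ran from abundant to near 0. At 0 µM, Tpm2 (a tropomyosin that is also made outside striated muscle) and Des (desmin, the intermediate filament of muscle) were the highest, at 71.8 and 68.9 CPM per kilobase. Cryab, a small heat shock protein that binds desmin, followed at 35.9, then Acta1 at 15.1, Tnnc1 at 11.5 and Mylpf at 9.14 CPM per kilobase. Ttn had 44.0 CPM but, with a merged exon length of 116825 bases, 0.376 CPM per kilobase. The summed level of the 46 genes was 745 to 820 CPM in the libraries of 0 µM, 680 to 750 at 2 µM and 643 to 672 at 6 µM, and most of it came from Tpm2 and Des.

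**Figure D1:**
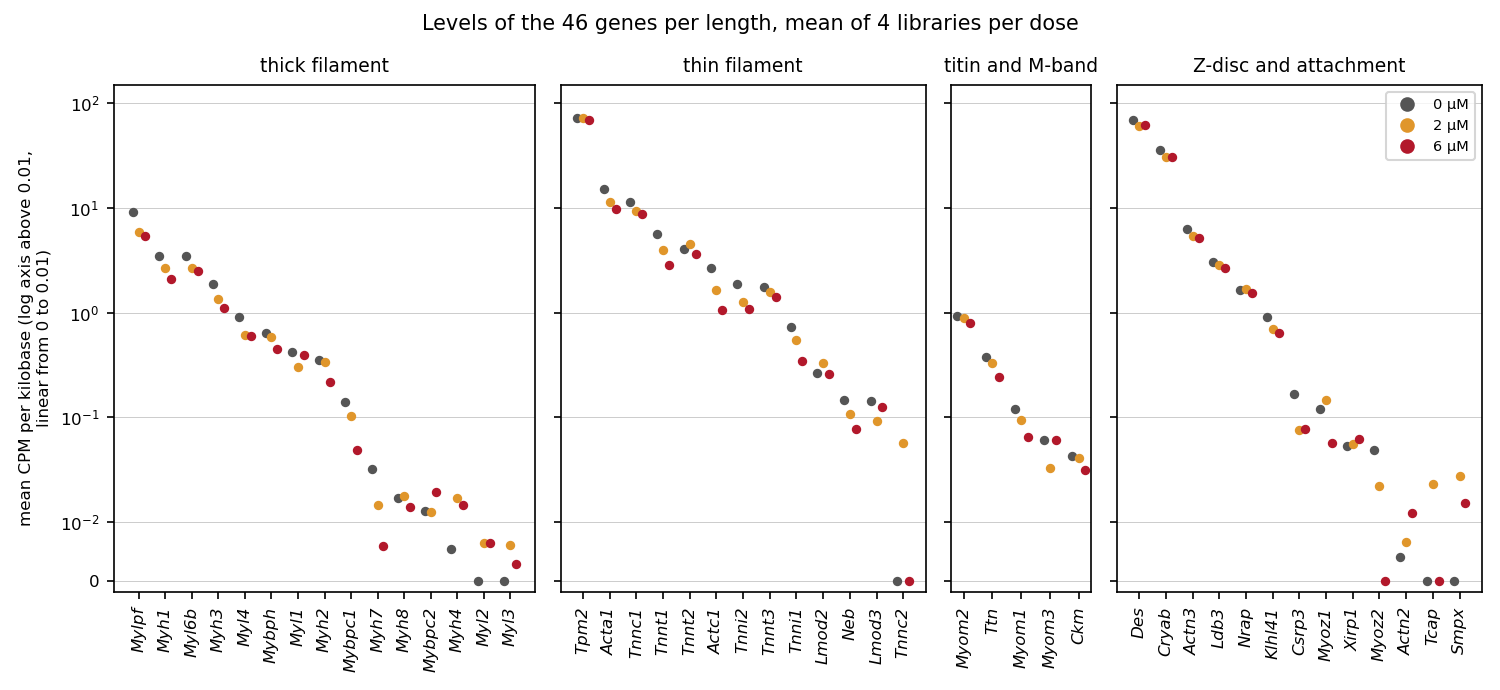
Mean CPM per kilobase of exon (vertical axis, logarithmic above 0.01 and linear from 0 to 0.01) of each of the 46 genes, by role, at 0, 2 and 6 µM; each point is the mean of 4 libraries. Tpm2 and Des stand above 60 at all doses, and genes of mature muscle such as Myl2, Tcap and Tnnc2 lie at or near 0.

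Of the 46 genes, 11 were too low to test: Myh4, Myh7, Myl2, Myl3, Mybpc2, Tnnc2, Ckm, Actn2, Tcap, Myoz2 and Smpx. They had 3 to 72 counts in total over the 12 libraries, whereas the lowest tested gene had 98. At 0 µM, 5 of them (Myl2, Myl3, Tnnc2, Tcap and Smpx) had no count in any library, where 3 counts over the dose would be 0.0201 CPM. Myh7, the heavy chain of slow and cardiac muscle, had 10, 13, 7 and 11 counts at 0 µM, 8, 7, 6 and 1 at 2 µM, and 0, 8, 0 and 1 at 6 µM. It was the most counted of the 11, and library 2 of 6 µM overlapped the 0 µM libraries. Myh4, the fast heavy chain of type IIb fibres, had 5, 18 and 15 counts over the 4 libraries of 0, 2 and 6 µM. Ckm, the muscle creatine kinase that binds the M-band, had 19, 21 and 16.

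Changes at 6 µM were tested by the quasi-likelihood test of edgeR, whose p-values were adjusted over all 16038 genes after Benjamini and Hochberg, and a gene was called at an adjusted p under 0.05. All 12 calls among the 35 tested genes were decreases. The only genes with a log2 fold change above 0, Lmod2 and Xirp1, had adjusted p of 0.999 and 0.887, and none of the 35 was called higher by edgeR, DESeq2 or limma-voom. Over all genes tested, 3.66% were called lower and 4.58% higher at 6 µM. The log2 fold change was below 0 in 33 of the 35, against 53.6% of all genes, with a median of -0.49 against -0.02. Groups did not overlap, with every 6 µM library under every 0 µM library, in 12 of the 35, against 6.15% of all genes. At an unadjusted p under 0.05, 20 of the 35 were lower and none higher, against 10.8% of all genes lower and 10.8% higher. Without the 3 most deviating libraries, which leaves 2 libraries at 6 µM, 7 genes were called: Myh1, Tnnt1, Ttn, Actc1, Acta1 and Myh3 of the 12, and Tnni2. In a bulk sample, fewer cells of a type and less RNA per cell cannot be told apart.

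**Figure D2:**
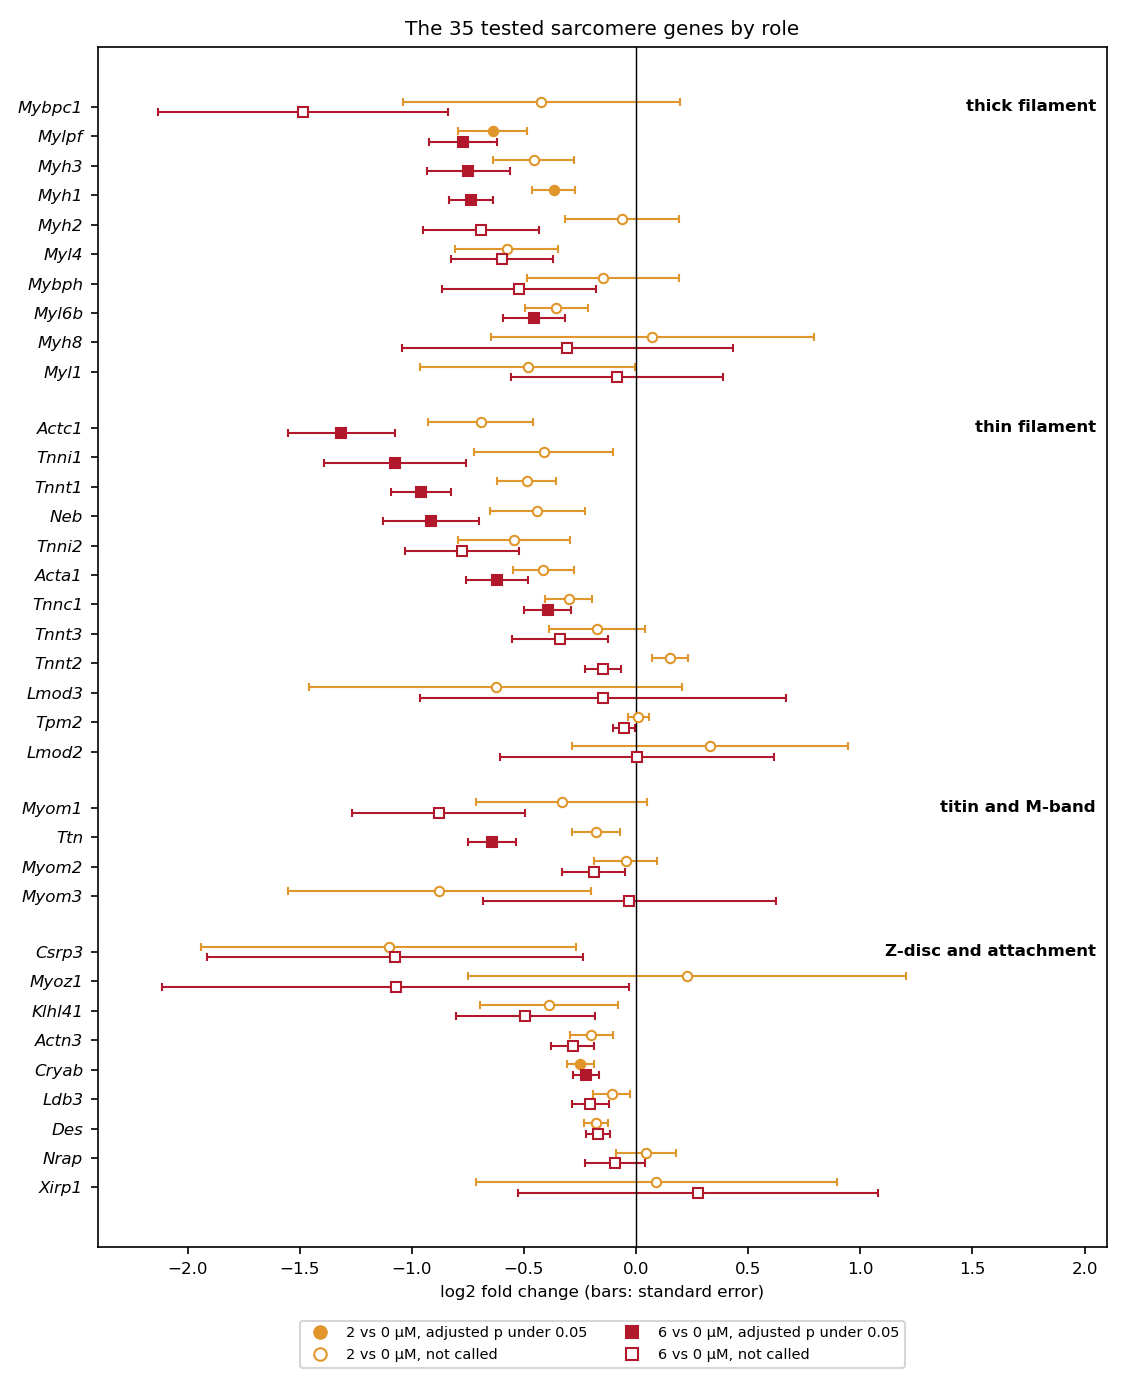
Log2 fold change (horizontal axis, bars ± 1 standard error) of the 35 tested genes by role, at 2 against 0 µM (circles) and 6 against 0 µM (squares), filled where the edgeR adjusted p was under 0.05. The 12 filled squares all lie left of 0, and the widest bars belong to genes of low count such as Myoz1 and Csrp3.

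Of the 15 thick filament genes, 10 were tested and 4 were called at 6 µM, all lower, against 3.66% of all genes called lower. Myh1 (chr11:67200052-67224575, GRCm38, + strand) encodes the heavy chain of fast type IIx fibres. It was at 22.6, 20.1, 24.4 and 20.9 CPM in the 4 libraries of 0 µM, at 16.3, 16.5, 18.1 and 17.3 at 2 µM, and at 11.6, 15.8, 12.6 and 12.8 at 6 µM. The 3 doses did not overlap in any library. Myh1 fell by 0.74 on the log2 scale at 6 µM (standard error, SE, 0.097, edgeR adjusted p = 3.13e-05). It fell by 0.37 at 2 µM (SE 0.096, edgeR adjusted p = 0.0429), and from 2 to 6 µM the log2 difference was -0.37 (edgeR adjusted p = 0.0677). The call at 6 µM held in each of 12 fits that left out 1 library, whereas the call at 2 µM was lost in 10 of them, with edgeR adjusted p up to 0.154 without library 3 of 0 µM; it held without libraries 1 and 2 of 6 µM. Of the exon bases of Myh1, 8.1% overlap the antisense transcript Myhas, and 9.7% of its 100-base windows occur in Myh2, Myh4, Myh8 or Myh13, so its reads are uncertain to that extent.

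Myh3 (chr11:67078300-67102291, + strand) encodes the embryonic heavy chain, the first to appear in new myotubes. Its levels were 13.5, 6.91, 10.1 and 15.02 CPM at 0 µM, 8.47, 6.73, 8.77 and 9.04 at 2 µM, and 6.02, 7.09, 8.32 and 5.51 at 6 µM. Library 2 of 0 µM lay within the range of 6 µM, so the groups overlapped. Myh3 fell 1.68-fold at 6 µM (log2 fold change -0.75, SE 0.18, edgeR adjusted p = 0.0129), and the call was lost without library 4 of 0 µM (edgeR adjusted p = 0.0525). At 2 µM its edgeR adjusted p was 0.231.

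Myh2, the heavy chain of type IIa fibres, was at 2.82, 2.04, 2.099 and 3.10 CPM at 0 µM, at 1.52, 2.70, 1.99 and 3.34 at 2 µM, and at 1.59, 1.53, 1.73 and 1.32 at 6 µM. All 6 µM libraries lay below the 0 µM libraries, but the difference was not called (log2 fold change -0.69, SE 0.26, edgeR adjusted p = 0.108). The perinatal heavy chain gene Myh8 had 31, 39 and 28 counts over the 4 libraries of 0, 2 and 6 µM, and its groups overlapped (edgeR adjusted p = 0.86 at 6 µM).

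Mylpf (chr7:127208890-127214298, + strand) encodes the regulatory light chain of fast skeletal myosin. It was at 10.2, 9.01, 7.45 and 12.2 CPM at 0 µM, at 7.03, 6.01, 5.92 and 5.89 at 2 µM, and at 7.19, 5.28, 4.97 and 5.21 at 6 µM. Every treated library was below every 0 µM library, and the treated doses overlapped each other. Mylpf fell 1.56-fold at 2 µM (log2 fold change -0.64, SE 0.15, edgeR adjusted p = 0.0263) and 1.71-fold at 6 µM (log2 fold change -0.77, SE 0.15, edgeR adjusted p = 0.00233). The 2 µM call was lost without library 2 or 4 of 0 µM or library 2, 3 or 4 of 2 µM, with edgeR adjusted p up to 0.103. No library decided the 6 µM call, which was lost when the 3 most deviating libraries were all left out (edgeR adjusted p = 0.0901).

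Myl6b (chr10:128494157-128498685, - strand) encodes an essential light chain of slow and embryonic muscle that is also made outside muscle. Its levels were 6.28, 6.56, 6.25 and 6.39 CPM at 0 µM, 4.80, 5.69, 4.6 and 4.81 at 2 µM, and 5.49, 4.06, 4.21 and 4.83 at 6 µM. The 0 µM libraries stood close together and above all treated ones. Myl6b fell 1.37-fold at 6 µM (log2 fold change -0.46, SE 0.14, edgeR adjusted p = 0.0472). This call, the nearest to the threshold, was lost without any 1 library other than library 1 of 6 µM, with edgeR adjusted p of 0.0518 to 0.131.

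The atrial and embryonic light chain gene Myl4 was at 4.65, 5.11, 3.22 and 3.94 CPM at 0 µM, at 2.71, 2.12, 2.92 and 3.61 at 2 µM, and at 3.11, 3.12, 3.33 and 1.63 at 6 µM. Library 3 of 0 µM overlapped the treated libraries, and the log2 fold change of -0.60 at 6 µM was not called (SE 0.23, edgeR adjusted p = 0.118). Myl1, the fast essential light chain, was at 1.56, 1.13, 0.250 and 0.554 CPM at 0 µM, at 0.733, 0.361, 0.719 and 0.687 at 2 µM, and at 0.876, 0.993, 0.601 and 0.813 at 6 µM. Its 0 µM libraries spread over the range of both other doses (edgeR adjusted p = 0.942 at 6 µM). The myosin binding protein genes Mybpc1 and Mybph were not called either, with log2 fold changes of -1.49 (SE 0.65) and -0.52 (SE 0.34) at 6 µM. Of the exon bases of Mybph, 49.9% overlap Adora1 on the other strand.

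Of the 13 thin filament genes, 12 were tested and 6 were called at 6 µM, all lower, against 3.66% of all genes called lower. Acta1 (chr8:123891769-123894751, - strand) encodes skeletal alpha-actin, the main thin filament actin of adult muscle. It was at 23.9, 20.3, 21.5 and 26.9 CPM at 0 µM, at 21.3, 13.6, 20.4 and 14.4 at 2 µM, and at 11.6, 16.1, 15.996 and 16.5 at 6 µM. The 2 µM libraries split into a pair within the range of 0 µM and a pair below it, whereas all 6 µM libraries were below 0 µM. Acta1 fell 1.54-fold at 6 µM (log2 fold change -0.62, SE 0.14, edgeR adjusted p = 0.006), and at 2 µM its edgeR adjusted p was 0.13.

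Actc1 (chr2:114047282-114053548, - strand) encodes cardiac alpha-actin, which is also the early actin of developing skeletal muscle. It was at 4.04, 3.81, 4.10 and 5.18 CPM at 0 µM, at 3.29, 2.16, 2.44 and 2.70 at 2 µM, and at 2.14, 2.33, 1.32 and 1.07 at 6 µM. Every treated library lay below every 0 µM library, and the lowest values were in libraries 3 and 4 of 6 µM. Actc1 fell 2.49-fold at 6 µM (log2 fold change -1.31, SE 0.24, edgeR adjusted p = 0.00111), the largest fold among the 12 calls. At 2 µM the log2 fold change was -0.69 (SE 0.23), which was not called (edgeR adjusted p = 0.139).

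The troponin complex holds a tropomyosin-binding subunit (troponin T), an inhibitory subunit (troponin I) and a calcium-binding subunit (troponin C), each with slow and fast forms. Tnnt1 (chr7:4504570-4516382, - strand), the slow troponin T gene, was at 11.8, 14.8, 11.5 and 11.01 CPM at 0 µM, at 10.3, 7.43, 9.82 and 7.57 at 2 µM, and at 5.67, 6.41, 7.19 and 6.02 at 6 µM. The 3 doses did not overlap. Tnnt1 fell 1.94-fold at 6 µM (log2 fold change -0.96, SE 0.13, edgeR adjusted p = 6.01e-05). At 2 µM the log2 fold change of -0.49 missed the threshold (SE 0.13, edgeR adjusted p = 0.0502), and between 2 and 6 µM the edgeR adjusted p was 0.0983. The 2 µM change was called with upper-quartile scaling, DESeq2, limma-voom, no count filter and a filter at a mean count of 50.

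Tnnt2, the cardiac and embryonic troponin T gene, was the most counted troponin. It was at 30.1, 32.7, 31.9 and 30.7 CPM at 0 µM, at 35.02, 37.0, 34.5 and 32.6 at 2 µM, and at 28.9, 31.8, 29.5 and 23.1 at 6 µM. The 6 µM libraries all lay below the 2 µM libraries, and neither dose was called against 0 µM (edgeR adjusted p = 0.415 at 2 µM and 0.302 at 6 µM). From 2 to 6 µM the log2 difference was -0.30 (SE 0.080, edgeR adjusted p = 0.0745). Tnnt3, the fast troponin T gene, was at 2.88, 3.16, 2.57 and 2.61 CPM at 0 µM, at 2.73, 2.20, 2.80 and 2.24 at 2 µM, and at 2.65, 1.49, 2.43 and 2.31 at 6 µM, with overlapping groups and no call (edgeR adjusted p = 0.392 at 6 µM).

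Tnni1 (chr1:135779434-135810989, + strand), the slow troponin I gene, was at 4.10, 2.51, 1.37 and 2.61 CPM at 0 µM, at 2.73, 1.122, 1.84 and 2.26 at 2 µM, and at 1.01, 1.13, 1.32 and 1.55 at 6 µM. The 0 µM libraries were widely spread, and library 3 of 0 µM fell inside the range of 6 µM. Tnni1 fell 2.11-fold at 6 µM (log2 fold change -1.08, SE 0.32, edgeR adjusted p = 0.0377). The call was lost without library 1, 2 or 4 of 0 µM or library 1, 2 or 3 of 6 µM, with edgeR adjusted p up to 0.146 (without library 1 of 0 µM), and with limma-voom (adjusted p = 0.0958). Tnni2, the fast form, had a log2 fold change of -0.78 at 6 µM that was not called (SE 0.25, edgeR adjusted p = 0.061). It was called without library 3 of 0 µM, without library 3 of 6 µM, with DESeq2 and with a filter at a mean count of 50.

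Tnnc1 (chr14:31208312-31211729, + strand) encodes the troponin C of slow and cardiac muscle. It was at 13.01, 11.8, 11.2 and 11.6 CPM at 0 µM, at 10.1, 10.2, 9.22 and 9.21 at 2 µM, and at 8.51, 10.6, 8.44 and 8.71 at 6 µM. All treated libraries were below all 0 µM libraries, with library 2 of 6 µM the nearest to them. Tnnc1 fell 1.31-fold at 6 µM (log2 fold change -0.39, SE 0.10, edgeR adjusted p = 0.0209), and the call was lost without library 1 of 0 µM or library 1, 3 or 4 of 6 µM (edgeR adjusted p of 0.0574 to 0.0709). The fast troponin C gene Tnnc2 had counts in libraries 1 and 4 of 2 µM alone (2 and 6), and 74% of its exon bases overlap Ube2c on the other strand.

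Neb (chr2:52136647-52378474, - strand) encodes nebulin, the giant protein that runs along the thin filament. It was at 4.32, 3.05, 3.37 and 4.76 CPM at 0 µM, at 3.69, 2.82, 2.06 and 2.81 at 2 µM, and at 1.80, 2.28, 2.15 and 1.96 at 6 µM. The 6 µM libraries were all below 0 µM, and the 2 µM libraries overlapped both. Neb fell 1.89-fold at 6 µM (log2 fold change -0.91, SE 0.21, edgeR adjusted p = 0.00921); the call held without any 1 library and was lost without the 3 most deviating ones (edgeR adjusted p = 0.0555). The tropomyosin gene Tpm2 was at 209 ± 7.65 CPM at 0 µM, 210 ± 13.01 at 2 µM and 201 ± 9.32 at 6 µM (SD, n = 4). Its log2 fold change at 6 µM was -0.05 (SE 0.048). The leiomodin genes Lmod2 and Lmod3, which encode nucleators of thin filaments, had 76 and 43 counts over the 4 libraries of 0 µM, and with standard errors of 0.61 and 0.82 no change in them was detectable at this depth.

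Titin, encoded by Ttn (chr2:76703980-76982547, - strand), is the giant elastic protein that links the Z-disc to the M-band. Ttn was at 50.8, 39.1, 38.9 and 47.2 CPM at 0 µM, at 38.6, 33.5, 43.1 and 39.9 at 2 µM, and at 26.4, 30.9, 22.2 and 32.9 at 6 µM. The 0 and 2 µM libraries overlapped, and every 6 µM library lay below both. Ttn fell 1.56-fold at 6 against 0 µM (log2 fold change -0.64, SE 0.11, edgeR adjusted p = 0.000489), a call that held in every fit. At 2 µM it was not called (log2 fold change -0.18, SE 0.11, edgeR adjusted p = 0.48). The direct test of 6 against 2 µM called it (log2 fold change -0.46, SE 0.11, edgeR adjusted p = 0.0339), and that call was lost without library 1, 3 or 4 of 2 µM or library 1 or 3 of 6 µM (edgeR adjusted p of 0.0648 to 0.129). The 3 myomesin genes, which encode cross-links of the M-band, were tested and not called at 6 µM, with log2 fold changes of -0.88 (Myom1, SE 0.39), -0.19 (Myom2, SE 0.14) and -0.03 (Myom3, SE 0.65).

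Of the 13 Z-disc and attachment genes, 9 were tested and 1 was called at 6 µM, lower, against 3.66% of all genes called lower. Cryab (chr9:50751325-50756636, + strand) encodes alpha-B crystallin, a small heat shock protein that protects desmin filaments. It was at 51.0, 54.6, 54.0 and 52.8 CPM at 0 µM, at 45.0, 44.9, 47.1 and 42.1 at 2 µM, and at 42.3, 43.8, 47.4 and 48.7 at 6 µM. Both treated doses lay below 0 µM in all libraries and overlapped each other. Cryab fell 1.19-fold at 2 µM (log2 fold change -0.25, SE 0.059, edgeR adjusted p = 0.0274) and 1.17-fold at 6 µM (log2 fold change -0.22, SE 0.059, edgeR adjusted p = 0.0213). The 6 µM call was lost without library 2 or 3 of 0 µM or library 1 or 2 of 6 µM (edgeR adjusted p up to 0.0929). The 2 µM call was lost without library 2, 3 or 4 of 0 µM or library 1, 2 or 4 of 2 µM (edgeR adjusted p up to 0.141). Of its exon bases, 17% overlap Hspb2 on the other strand, which stood at 4.17, 3.51 and 3.54 CPM (means at 0, 2 and 6 µM).

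Des, the desmin gene and the second most abundant of the 46 per length, was at 228, 269, 259 and 278 CPM at 0 µM, at 243, 227, 228 and 217 at 2 µM, and at 232, 218, 229 and 242 at 6 µM. Library 1 of 0 µM lay among the treated libraries, the other 3 above them. Des just missed the threshold at 6 µM (log2 fold change -0.17, SE 0.054, edgeR adjusted p = 0.0555), and was called at both doses without that library. With all libraries, its 6 µM change was called with upper-quartile scaling, DESeq2, limma-voom, no count filter and a filter at a mean count of 50. Actn3, the fast alpha-actinin that crosslinks actin at the Z-disc, had a log2 fold change of -0.28 (SE 0.096, edgeR adjusted p = 0.0755), and Ldb3, which binds alpha-actinin, one of -0.20 (SE 0.083, edgeR adjusted p = 0.145). The other 5 tested genes of this role (Nrap, Klhl41, Csrp3, Myoz1 and Xirp1) had edgeR adjusted p of 0.385 to 0.887 at 6 µM, and Xirp1, at 41 to 62 counts per dose, was the only one of them with a log2 fold change above 0.

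**Figure D3:**
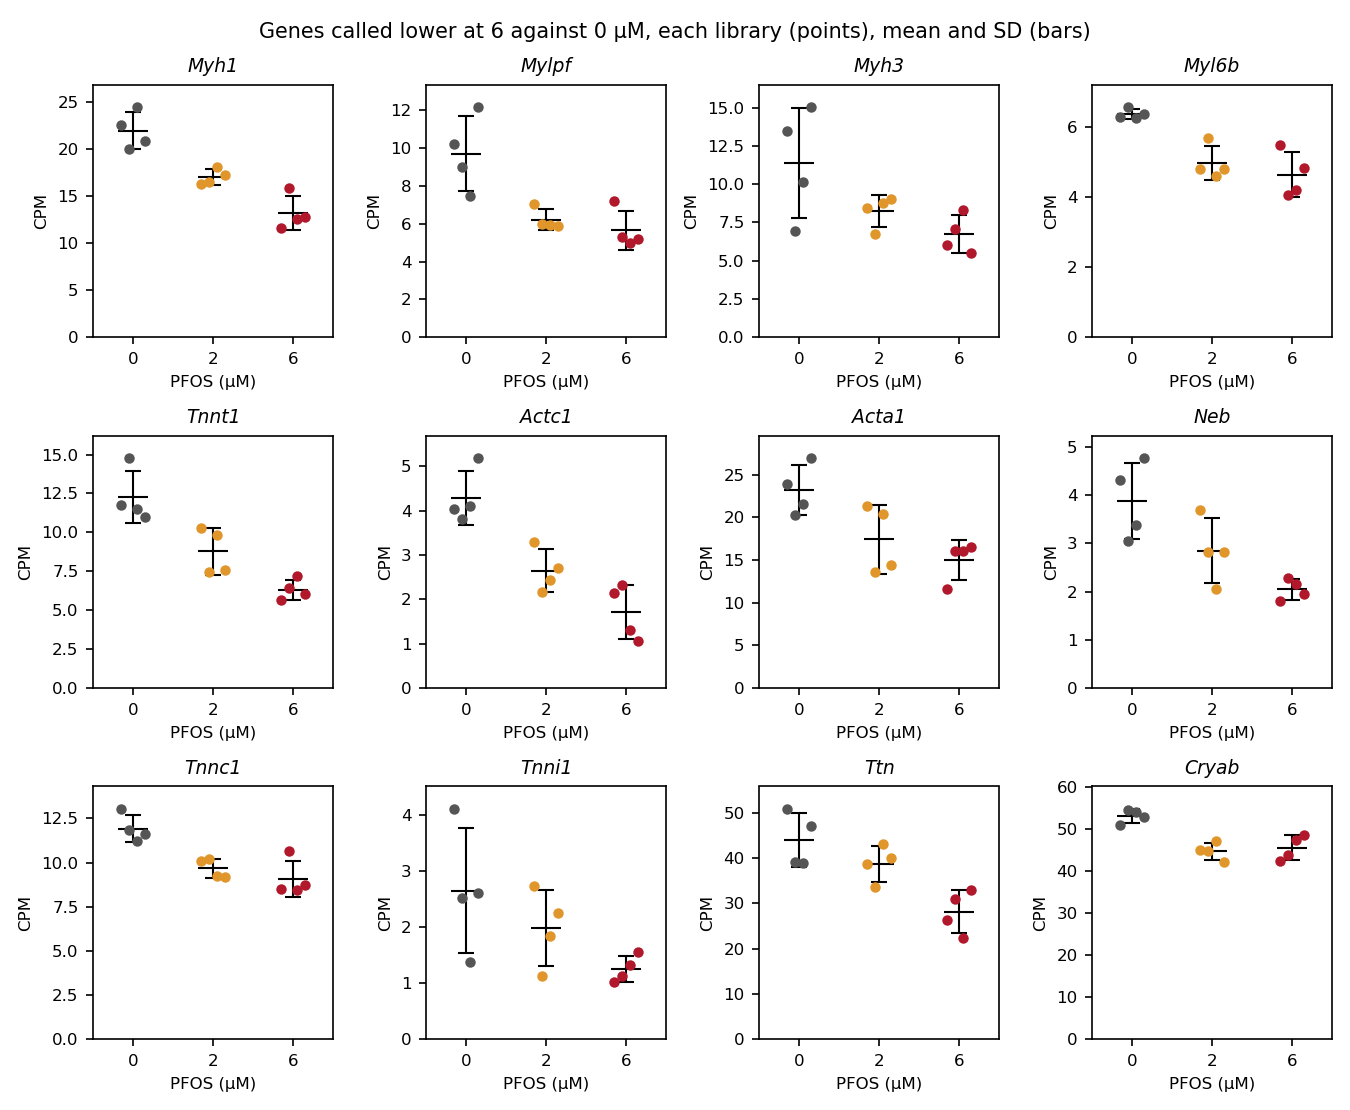
Level in CPM (vertical axes from 0) in each library at 0, 2 and 6 µM of the 12 genes called lower at 6 against 0 µM; points are libraries, bars are the mean and SD of 4. Myh1 and Tnnt1 have no overlap between any doses, Myh3 and Tnni1 overlap between 0 and 6 µM, and Cryab and Mylpf are near their 6 µM level already at 2 µM.

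At 2 against 0 µM, 3 of the 35 tested genes were called, all lower, against 0.742% of all genes called lower and 1.61% called higher. The log2 fold change was below 0 in 28 of 35, against 52.9% of all genes, with a median of -0.33 against -0.01. Every 2 µM library was under every 0 µM library for 7 of the 35 (Actc1, Cryab, Myh1, Myl6b, Mylpf, Tnnc1 and Tnnt1), against 3.6% of all genes. At an unadjusted p under 0.05, 13 were lower and none higher, against 6.24% of all genes lower and 7.88% higher. At 6 against 2 µM, 1 of 35 was called, against 0.549% of all genes called lower and 0.561% higher. At an unadjusted p under 0.05, 8 were lower and none higher, against 6.77% of all genes lower and 5.75% higher. The log2 difference was below 0 in 28 of 35, against 51.3% of all genes. The 6 µM libraries were all lower for 4 genes (Myh1, Tnnt1, Tnnt2 and Ttn), against 4.15% of all genes, and all higher for none, against 4.45%. The comparisons with 0 µM share the same 4 control libraries.

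By role, the median log2 fold change of the tested genes at 6 µM was -0.64 for the thick filament, -0.51 for the thin filament, -0.42 for titin and the M-band and -0.22 for the Z-disc and attachments, against -0.02 over all genes. At 2 µM the medians were -0.40, -0.41, -0.26 and -0.18. By fibre type, 3 of 6 tested developmental genes (Actc1, Myh3 and Myl6b), 3 of 4 tested slow genes (Tnnt1, Tnnc1 and Tnni1) and 2 of 9 tested fast genes (Myh1 and Mylpf) fell at 6 µM. Over all genes tested, 3.66% were called lower. In 12 fits without 1 library, the calls of Tnni1, Tnnc1, Myl6b and Myh3 were lost in 6, 4, 11 and 1. The medians of the developmental, slow and fast genes at 6 µM were -0.53, -1.02 and -0.69. These groups hold few genes, 4 of the 8 slow genes were tested, and differences between the groups were not tested. The counts also depend on how a gene was assigned: Myl6b, counted as developmental, is a light chain of slow muscle too.

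The isoform shares within families were computed per length in each library. The length is that of all annotated exons of a gene merged, which can exceed that of its RNA. It is 7752 bases for Tnnt2, 2204 for Tnnt1 and 1583 for Tnnt3, so the ranking of these forms depends on it. Without length, Tnnt2 was at 31.4 CPM and Tnnt1 at 12.3 at 0 µM. Among the sarcomeric heavy chains, Myh1 made up 60.8 ± 7.27% at 0 µM, 60.6 ± 2.12% at 2 µM and 60.4 ± 4.77% at 6 µM (SD, n = 4), and Myh3 made up 32.1 ± 6.82%, 30.7 ± 2.73% and 32.3 ± 3.82%. Both genes fell at 6 µM while their shares moved by less than the spread between libraries. Among the troponin T genes the shares moved: Tnnt1 made up 47.1 to 51.8% of the family in the libraries of 0 µM, 35.3 to 42.7% at 2 µM and 32.3 to 38.1% at 6 µM. Tnnt2 made up 32.7 to 37.5%, 41.4 to 50.1% and 41.6 to 51.6%, so that neither gene's share at 0 µM overlapped that at a treated dose. Tnnt3 stayed at 15.6 ± 0.66%, 15.6 ± 0.821% and 17.8 ± 4.17%. The fast share of skeletal troponin I (Tnni2) was 72.4 ± 7.51% at 0 µM and 74.8 ± 7.07% at 6 µM, and the share of Mylpf among the light chains was 65.3 ± 4.33% and 60.0 ± 1.65%.

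**Figure D4:**
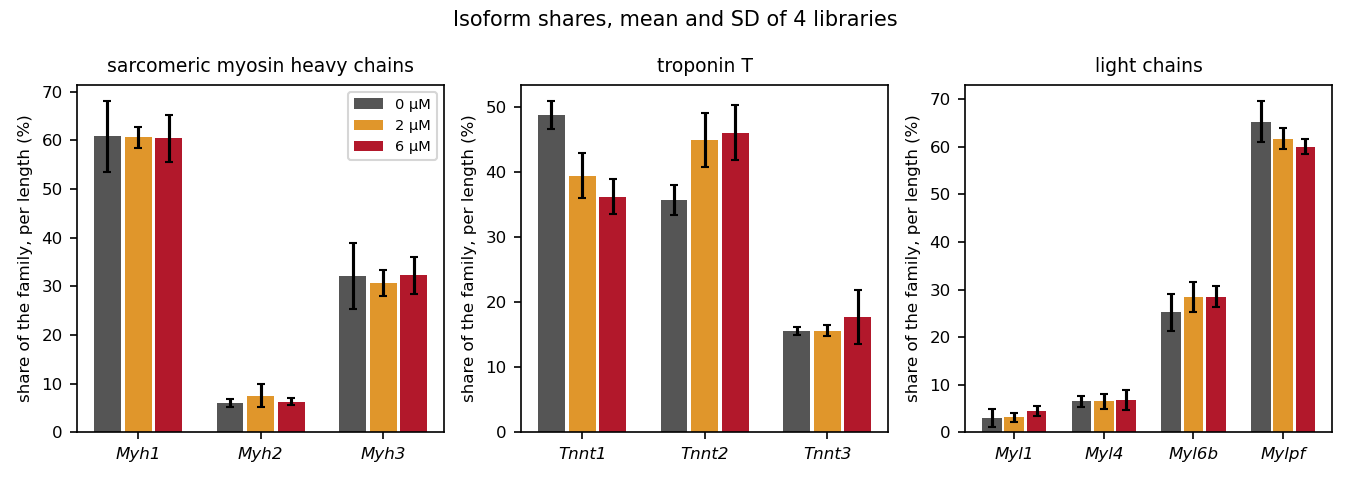
Share of each gene in its family at 0, 2 and 6 µM, bars with mean and SD of 4 libraries. The vertical axis is % of the summed CPM per kilobase of merged exon length, on which the ranking of forms depends. Genes with low shares are not drawn. Tnnt1 goes from 48.7 to 36.2% and Tnnt2 from 35.7 to 46.02% between 0 and 6 µM, while Myh1 stays near 60%.

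The sarcomeric actins were a small part of the muscle actin RNA. Acta2, the smooth muscle alpha-actin that myoblasts also make, was 89.5 ± 0.654% of the 4 muscle actins per length at 0 µM, with Acta1 at 5.38 ± 0.673% and Actc1 at 0.943 ± 0.126%. Acta2 was at 435, 444, 461 and 448 CPM at 0 µM, at 382, 386, 397 and 409 at 2 µM, and at 290, 285, 293 and 273 at 6 µM. It fell 1.57-fold at 6 µM (log2 fold change -0.65, SE 0.038, edgeR adjusted p = 1.59e-10), near the 1.54-fold of Acta1. At 6 µM the shares were 89.1 ± 0.965% for Acta2, 5.45 ± 0.892% for Acta1 and 0.588 ± 0.208% for Actc1.

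Other genes of the apparatus, muscle regulators and cell type markers were counted from lists, each count at 6 µM to be read against the 3.66% of all tested genes called lower and the 4.58% called higher. Of 19 tested actins, myosins and tropomyosins shared with non-muscle cells, 1 fell at 6 µM and none rose (1 was higher at an unadjusted p under 0.05 in edgeR, and DESeq2 called 2 lower and 0 higher). The share that fell is near that of all genes. The gene that fell was Myl9, a regulatory light chain of non-muscle and smooth muscle myosin, at 8.45 ± 0.223 CPM at 0 µM and 4.96 ± 0.517 at 6 µM (SD, n = 4; edgeR adjusted p = 0.000353). Tpm1 was not called (log2 fold change -0.09, SE 0.034, edgeR adjusted p = 0.119). Of 9 tested smooth muscle contractile genes, Acta2, Actg2 and Mylk fell and Smtn rose. The call of Smtn was lost without library 1 or 3 of 0 µM or library 1, 3 or 4 of 6 µM (edgeR adjusted p up to 0.0922). The calls of Actg2 and Mylk were lost without the 3 most deviating libraries (edgeR adjusted p = 0.117 and 0.0535).

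Of 17 tested further Z-disc, M-band and costamere genes, 4 fell at 6 µM (Pdlim3, Synpo2l, Fhl2 and Nexn) and Flnc rose. Pdlim3, which binds alpha-actinin, fell from 12.1 ± 1.95 to 6.28 ± 0.491 CPM (edgeR adjusted p = 4.94e-05), and Synpo2l from 2.55 ± 0.341 to 1.19 ± 0.392 (edgeR adjusted p = 0.0103). Fhl2 lost its call without library 2 or 3 of 0 µM or 1 or 4 of 6 µM. Nexn lost its call without library 1, 2 or 3 of 0 µM or 1, 3 or 4 of 6 µM. In those fits the edgeR adjusted p reached 0.0973 for Fhl2 and 0.121 for Nexn. Flnc, the muscle filamin, rose from 416 ± 32.4 to 511 ± 12.6 CPM (edgeR adjusted p = 0.000364). Of 20 tested genes for assembly, folding and turnover of the sarcomere, none fell in edgeR or DESeq2 or had an unadjusted edgeR p under 0.05 for a decrease. Hsp90aa1, a chaperone of myosin folding among many other proteins, rose 1.15-fold (edgeR adjusted p = 0.00551), and 1 of 20 is near the 4.58% of all genes called higher.

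Among 14 tested muscle transcription factors, 6 fell at 6 µM, among them Mef2c, Mef2a, Myog, Six4 and Myod1, and Mef2d rose, against 3.66% of all genes called lower and 4.58% higher. Myog, which drives terminal differentiation, was at 6.31, 6.19, 8.90 and 7.20 CPM at 0 µM, at 6.45, 4.31, 5.32 and 5.80 at 2 µM, and at 3.78, 4.13, 4.00 and 4.34 at 6 µM. Every 6 µM library was below 0 µM, and the 2 µM libraries overlapped both. Myog fell 1.76-fold at 6 µM (log2 fold change -0.82, SE 0.16, edgeR adjusted p = 0.00172). Mef2c fell 1.30-fold (edgeR adjusted p = 0.000393), Mef2a 1.22-fold (edgeR adjusted p = 0.00146) and Myod1 1.30-fold (edgeR adjusted p = 0.00333). Mef2d lost its call in 9 of 12 fits without 1 library, all but those without library 3 or 4 of 0 µM or library 3 of 2 µM (edgeR adjusted p up to 0.129). Without the 3 most deviating libraries the calls of Mef2a and Six4 were lost (edgeR adjusted p = 0.0573 and 0.115). Srf, which binds the CArG box, was not called (log2 fold change -0.13, SE 0.072, edgeR adjusted p = 0.319).

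Of 26 tested genes of the muscle membrane and metabolism that rise in differentiation, 10 fell at 6 µM and Cox6a2 rose, against the same 3.66% and 4.58% of all genes. Srl (sarcalumenin, a calcium-binding protein of the sarcoplasmic reticulum) fell from 16.2 ± 1.93 to 9.49 ± 1.22 CPM (edgeR adjusted p = 7.68e-05). Dmpk, a muscle kinase, fell from 42.7 ± 5.06 to 30.1 ± 1.65 CPM (edgeR adjusted p = 0.000376). Also among the 10 were Casq2, Jsrp1, Chrna1, Mb, Sgca, Cacng1 and Chrng. Leaving out 1 library ended the calls of Sgca (library 1 or 2 of 6 µM), Cacng1 (library 2, 3 or 4 of 0 µM, or 1, 3 or 4 of 6 µM), Chrng (library 1, 3 or 4 of 0 µM, or 3 or 4 of 6 µM) and Cox6a2 (library 1 of 0 µM or 4 of 6 µM), with edgeR adjusted p up to 0.108. Without the 3 most deviating libraries, Casq2 and Mb also lost theirs (edgeR adjusted p = 0.0509 and 0.0894).

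**Figure D5:**
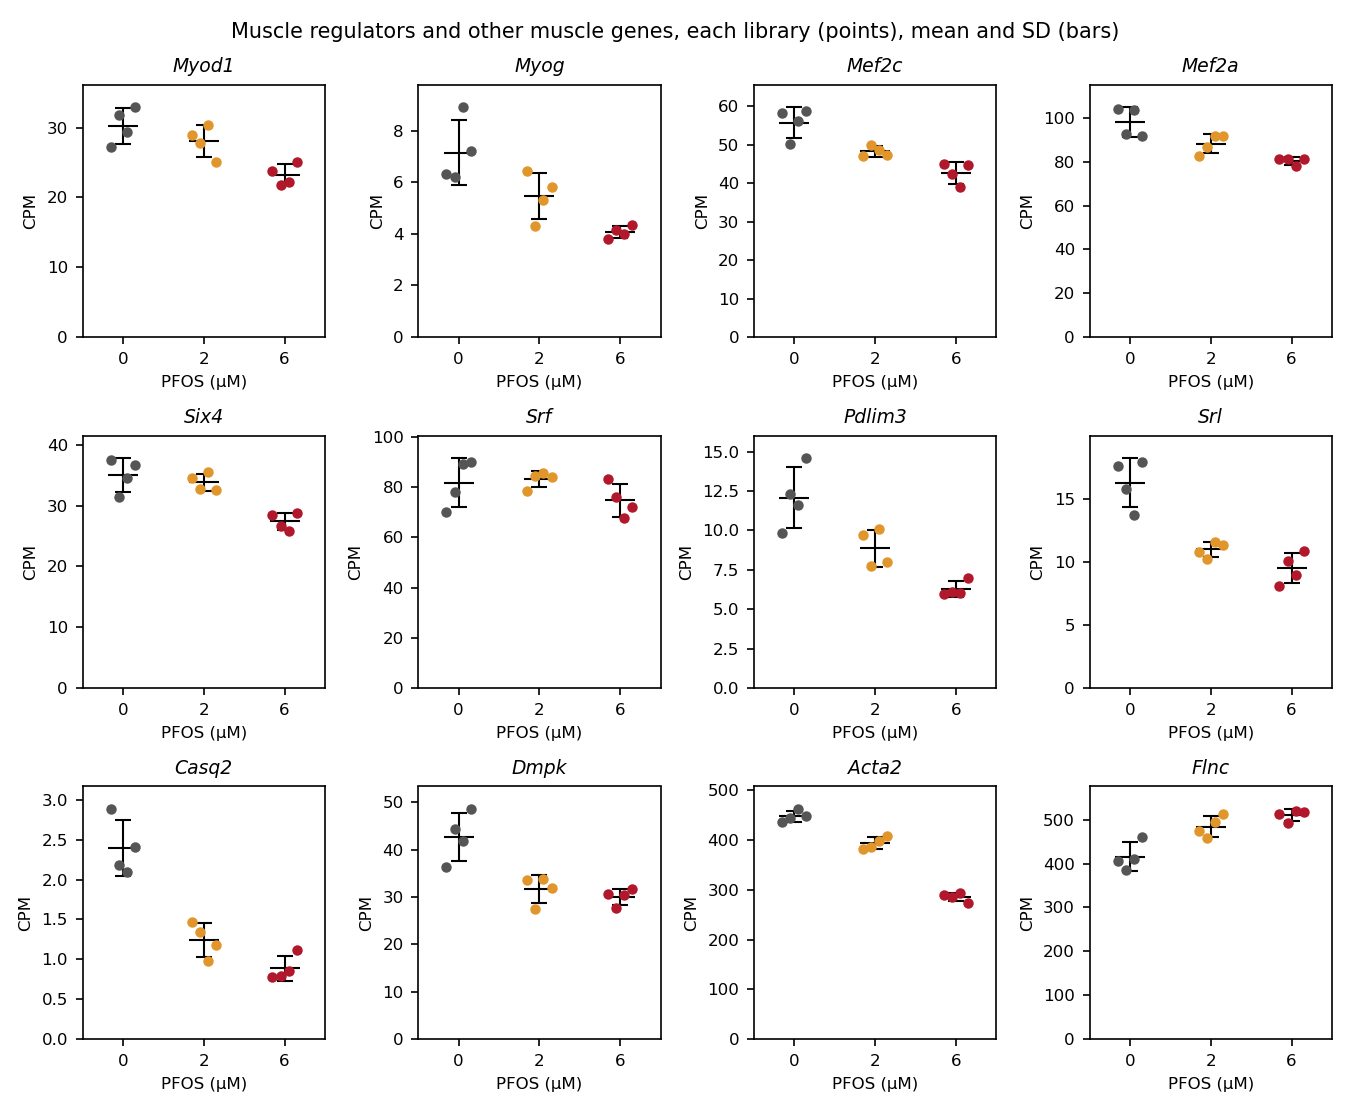
Level in CPM (vertical axes from 0) in each library at 0, 2 and 6 µM of muscle transcription factors and other muscle genes; points are libraries, bars are the mean and SD of 4. Myog, Srl, Casq2 and Acta2 lie lower at 6 µM than at 0 µM without overlap, Flnc lies higher, and Srf overlaps.

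Markers of other cell types were measured beside these results. Of 7 adipocyte markers 3 were tested, and Lipe, Pparg and Fabp4 rose at 6 µM (summed level of the list 25.5 to 28.9 CPM at 0 µM and 36.6 to 40.4 at 6 µM), while Adipoq and Retn, which define adipocytes, had no count in any library. The call of Fabp4 was lost in 6 of the 12 fits without 1 library (library 2, 3 or 4 of 0 µM, or 1, 2 or 3 of 6 µM; edgeR adjusted p up to 0.123). Of 7 fibroblast markers 5 were tested, and Col3a1 and Col1a2 fell (summed level 11849 to 14377 CPM at 0 µM and 11049 to 11616 at 6 µM). Most of that level came from Col1a2, Col1a1 and Col3a1, at 6062, 4332 and 2772 CPM at 0 µM, whereas Dcn was at 4.06. Thy1 and Lum were too low to test, and Thy1 had no count at 6 µM. Of 9 tested cell cycle genes Mcm2 rose 1.13-fold (edgeR adjusted p = 0.00842), a call lost without the 3 most deviating libraries (edgeR adjusted p = 0.0823). DESeq2 called 3 genes of this list higher and 0 lower. At an unadjusted edgeR p under 0.05, 3 were higher and 0 lower, against 10.8% of all genes higher. None of the 2 tested macrophage markers or the 1 tested endothelial marker was called by edgeR or DESeq2 or had an unadjusted edgeR p under 0.05. The part of these other changes in the decreases of the sarcomere genes was not tested.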

How the data were processed

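The authors deposited 1 table of read counts per gene, whole numbers that are not normalized, for 12 libraries. HISAT2 and the build GRCm39 are named in the submitters' processing notes. No source used here gives the counting program, its strand setting or the annotation. The table's coordinates are those of GENCODE M21 (GRCm38) for 98.3% of 54495 shared genes and for 45 of the 46 described here, so they are named as GRCm38.

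The deposited counts were fitted by edgeR 4.0.16 (R 4.3.3): TMM scaling, filterByExpr with dose as group, 1 mean per dose over all 12 libraries (9 residual degrees of freedom), the quasi-likelihood test and Benjamini-Hochberg adjustment over 16038 genes, and a threshold of 0.05. SE is the log2 fold change over the square root of F. CPM use TMM-scaled totals, and values per kilobase use the table's gene length. Alternatives were DESeq2 1.42.0, limma-voom (limma 3.58.1), upper-quartile scaling, other count filters, a replicate block and sets of fewer libraries. The fit was also run on simulated data with known fold changes, and the outcome is not reported here.

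The genes and lists were chosen with earlier results of these data known, and fits without libraries were tabulated for the further lists after their values were seen. The genes given in full are those called in any comparison, with the actins, heavy chains, troponin T genes, Myl1, Mylpf, Myl4, Ttn, Neb, Des and Ckm. From each further list up to 3 called genes with the smallest adjusted p are given, with Myod1, Myog, Mef2c, Srf, Acta2 and Tpm1; some genes of these lists are not reported here.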

Additional observations from a re-analysis of the deposited data

Results flagged for a closer look

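In 7 of the 105 sets of 4 libraries (the 35 tested genes at each dose, 6.67%), 1 library stood far from the other 3 by Dixon's test at the 95% level, which chance does in about 1 of 20 sets. Acta1 was low in library 1 of 6 µM, at 11.6 CPM against 15.996 to 16.5 in the other 3. Mylpf was high in library 1 of 6 µM, at 7.19 CPM against 4.97 to 5.28, and in library 1 of 2 µM, at 7.03 against 5.89 to 6.01. Tnnc1 was high in library 2 of 6 µM, at 10.6 CPM against 8.44 to 8.71. Tpm2 was high in library 1 of 2 µM, at 230 CPM (229.8) against 202 to 205. Myl4 was low in library 4 of 6 µM, at 1.63 CPM against 3.11 to 3.33, and Myl1 was low in library 2 of 2 µM, at 0.361 against 0.687 to 0.733. The calls of Acta1 and Mylpf at 6 µM held without library 1 of 6 µM.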

How the results depend on the processing

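At 2 against 0 µM the count of sarcomere genes called, 3 in the reported fit, was 5 with DESeq2 and 7 with no filter on low counts, and 0 to 3 when 1 library was left out. At 6 against 0 µM the count of 12 was 7 without the 3 most deviating libraries, 10 to 14 with the other settings and 9 to 11 when 1 library was left out. At 6 against 2 µM the count of 1 was 4 with DESeq2, 4 with no filter, 2 without the 3 most deviating libraries, and 0 to 3 when 1 library was left out. DESeq2 and the fit with no filter each added Myh1, Tnnt1 and Tnnt2. The cause of these differences was not tested. With the replicate number as a block the counts were 2, 10 and 1. No source used here says whether equal numbers mark libraries made together. Deviations of same-numbered libraries correlated at -0.028 to 0.0375 over 12 pairs, against -0.021 to 0.0517 over 36 other pairs. A library correlated best with its own number in 8 of 24 cases. Pairing by number was not tested. The calls of Myh1, Tnnt1, Ttn, Actc1 and Acta1 at 6 µM held in all 12 fits without 1 library and in the 8 other fits. None of 779 recomputed fold changes of single genes reversed, and 693 kept their call. Upper-quartile and DESeq2 scaling left the median of all genes within 0.03 of 0 on the log2 scale. None of 36 mean levels moved by 1 SD or more with unscaled totals. Depth limits the low genes: 11 could not be tested, and 10 of the 35 tested had a mean count under 50. Of counts from 1 to 10 over all genes 62.7% were even, against 49.9% of those over 100 and up to 1000, and no source used here says how mates of a pair were counted, so a low count may rest on fewer molecules than it states.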

Other observations

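Ankrd1, which encodes a titin-binding repeat protein that responds to stretch, was highest at 2 µM. It was at 278, 243, 264 and 231 CPM at 0 µM, at 329, 316, 326 and 365 at 2 µM, and at 264, 292, 269 and 259 at 6 µM. All 2 µM libraries stood above all others. Ankrd1 rose at 2 µM (log2 fold change 0.39, SE 0.056, edgeR adjusted p = 0.0004) and was lower at 6 than at 2 µM (log2 fold change -0.30, SE 0.056, edgeR adjusted p = 0.00656), and both calls held in each fit without 1 library. It was singled out after its values were seen.

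Among 8 cardiac forms that adult skeletal muscle lacks, 2 were tested. Tnni3, the cardiac troponin I gene, was at 1.44, 1.21, 1.70 and 1.499 CPM at 0 µM, at 1.21, 1.14, 1.03 and 0.819 at 2 µM, and at 0.784, 0.564, 0.347 and 0.788 at 6 µM. It fell 2.35-fold at 6 µM (log2 fold change -1.23, SE 0.34, edgeR adjusted p = 0.0276), a call that was lost without library 3 or 4 of 0 µM or library 2 or 3 of 6 µM (edgeR adjusted p up to 0.0828). Mybpc3, the cardiac myosin binding protein, had no count in any library.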
